A study of Mus musculus with 6 samples.

Results

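The mitochondrial carriers of the Slc25 family were examined in kidney RNA from adult mice whose Pax2 and Pax8 genes were to be removed by an inducible Cre recombinase. The set holds every gene on the array whose symbol is Slc25a followed by a number, apart from 1 that the selection left out. It comprises 45 of the 22180 genes measured, taken by name, although the set was chosen with earlier results of these data known. There were 6 Affymetrix Mouse Gene 2.1 ST arrays, 3 labelled knockout (Pax28 dKO, numbered 1, 3 and 5) and 3 labelled control (numbered 2, 4 and 6). The knockout mice carried conditional, floxed alleles of both Pax genes and Rosa26CreER, a tamoxifen-dependent Cre made from a locus that is active in most cell types, so deletion was not directed to the tubule. The controls lacked Cre and also received tamoxifen, and their Pax alleles are not stated in the sources used. Mice aged 8 weeks received tamoxifen at 50 mg/kg on 3 days in a row, a course repeated at 10 weeks, and the kidneys were collected 14 days after the last dose. Each group had 2 females and 1 male, the males being knockout 1 and control 4. The labels do not say that each array is a separate animal, so a p-value speaks only to the spread among these 6 samples, which may be technical.

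Slc25 proteins sit mostly in the inner mitochondrial membrane and exchange small molecules between cytosol and matrix: ADP for ATP, phosphate, citrate and other organic acids, amino acids, nucleotides, coenzyme A, iron and glutathione. Most are built from similar repeats that together form a single transport path. Proximal tubule cells are among the most mitochondria-rich cells of the kidney and use these carriers for oxidative phosphorylation, for making glucose and ammonia, and for converting amino acids.

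Expression was deposited as log2 values, and the array medians lay between 3.81 and 3.87. Each log2 difference below is knockout-labelled minus control, adjusted for sex in limma, with its moderated standard error (SE), and a gene passed when its p, adjusted by the Benjamini-Hochberg method over all 22180 genes, was below 0.05. Neither targeted gene was lower there: Pax8 stood at 10.36 ± 0.24 on the arrays labelled knockout against 9.0 ± 0.10 on the controls (SD, n = 3), and Pax2 at 6.25 ± 0.21 against 5.98 ± 0.18. Which exons Cre removes is not stated in the sources used, so these clusters do not check the labels, and each direction below is that of arrays so labelled. Markers of brown fat were uneven across the arrays. Ucp1, the uncoupling protein of brown adipocytes and itself a relative of the carriers, stood at 7.77 and 7.53 on controls 2 and 6. It stood at 3.53 on control 4 and between 3.87 and 5.12 on the arrays labelled knockout. Cidea and Elovl3 were also highest on controls 2 and 6. Cox8b and Cox7a1 were instead highest on knockout 3 (5.72 and 7.32), and Dio2 ranged only from 3.69 to 3.88. Without these 2 controls together, control 4 is the only control left, and each difference is that of the male pair. That fit cannot show whether a call depends on these 2 controls, so its counts are not given.

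Of the 45 carriers, 1 rose and 2 fell. The rise was in Slc25a24, a calcium-regulated carrier of ATP-Mg and phosphate, and the falls were in Slc25a42 and Slc25a16, both linked to the supply of coenzyme A to the matrix. The 3 called carriers are 6.67% of the family, where 7.2% of all genes were called. By direction, 4.12% of all genes were higher and 3.08% lower, and with each array centred on its median the split over all genes moved from 913 higher and 683 lower to 713 higher and 1194 lower. The family's median difference was -0.02 (all genes -0.01), 17 carriers lay above 0 and 28 below, and 33 differed by less than 0.2. Differences of at least 0.5 in either direction were found for 4 carriers, or 8.89%, against 7.38% of all genes. The arrays of the 2 groups did not overlap for 9 carriers, 1 higher and 8 lower, which is 20% of the family where 22.5% of all genes had such groups (11.7% higher and 10.8% lower). Only Slc25a31, Slc25a41 and Slc25a54 had a mean below 2.98, the 25th percentile of gene means, used here as the limit for dim genes; the other 42 lay above it.

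**Figure D1:**
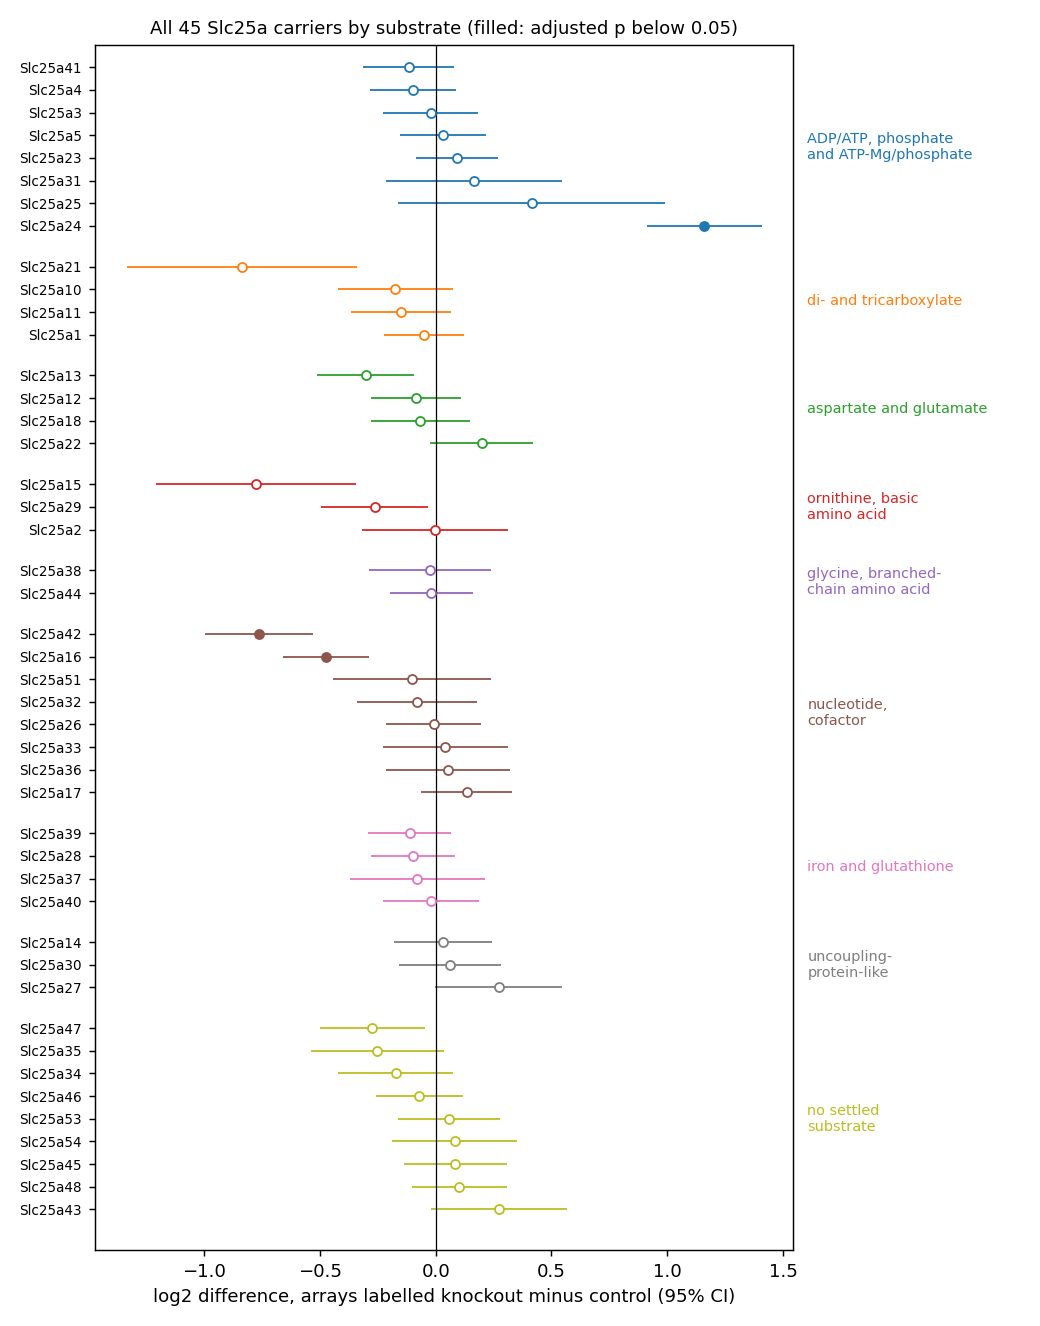
Log2 difference (arrays labelled knockout minus controls, adjusted for sex) of each of the 45 Slc25a carriers with its 95% confidence interval, ordered by substrate; filled points passed the adjusted threshold of 0.05. Slc25a24 stands alone on the right at 1.16, Slc25a42 and Slc25a16 are filled on the left at -0.76 and -0.47, and most intervals span 0.

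Among the 8 carriers of ADP, ATP and phosphate, 1 rose and none fell. Slc25a24 (Entrez gene 229731), which adjusts the adenine nucleotide content of the matrix in response to calcium, stood at 6.87, 7.03 and 7.33 on the arrays labelled knockout 1, 3 and 5. On controls 2, 4 and 6 it stood at 5.95, 5.71 and 6.08. The 3 arrays labelled knockout thus all lay above the 3 controls. The log2 difference was 1.16 ± 0.10 (SE), or 2.23-fold, with a limma adjusted p of 0.0040. It was 1.15 in the males and 1.16 in the females, and it passed with any single array left out (1.07 to 1.25, adjusted p up to 0.029). Without controls 2 and 6 together only the male pair sets the difference (1.15), so that fit is no separate check.

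The promoter of Slc25a24 is shown because this gene had the largest difference of the family. The window, from RefSeq on GRCm38.p6, runs from 250 bases before to 50 after the gene's start at chr3:109122899-109123198 on the plus strand, and capitals mark matches to the 4 motifs described with the coenzyme A carriers below.
Slc25a24: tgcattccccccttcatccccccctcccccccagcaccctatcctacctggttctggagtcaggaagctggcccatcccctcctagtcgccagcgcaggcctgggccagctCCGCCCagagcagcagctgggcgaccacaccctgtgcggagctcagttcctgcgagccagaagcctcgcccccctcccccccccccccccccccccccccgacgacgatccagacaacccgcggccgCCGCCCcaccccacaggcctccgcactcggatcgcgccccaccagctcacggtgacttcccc
Its 300 bases are 72.3% G or C and hold 2 GC boxes, 139 and 12 bases before the start, with no other match.

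The calcium-regulated relatives of Slc25a24 did not pass. Slc25a25, whose product exchanges the same substrates, stood at 5.67, 6.69 and 5.93 on knockout 1, 3 and 5 and at 5.46, 5.73 and 5.85 on controls 2, 4 and 6. Knockout 3 was the highest array and knockout 1 lay among the controls, and the difference was 0.41 ± 0.24 (adjusted p = 0.39). Slc25a23 differed by 0.09, with a 95% confidence interval from -0.09 to 0.27. None of the carriers that serve ATP synthesis passed either: Slc25a4, the ADP/ATP exchanger ANT1, differed by -0.10 (-0.28 to 0.09), Slc25a5, its paralogue ANT2, by 0.03 (-0.15 to 0.22), and the phosphate carrier Slc25a3 by -0.02 (-0.23 to 0.18). The list's median was 0.06. Slc25a31, the ADP/ATP exchanger of the germ line, and Slc25a41 were dim.

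**Figure D2:**
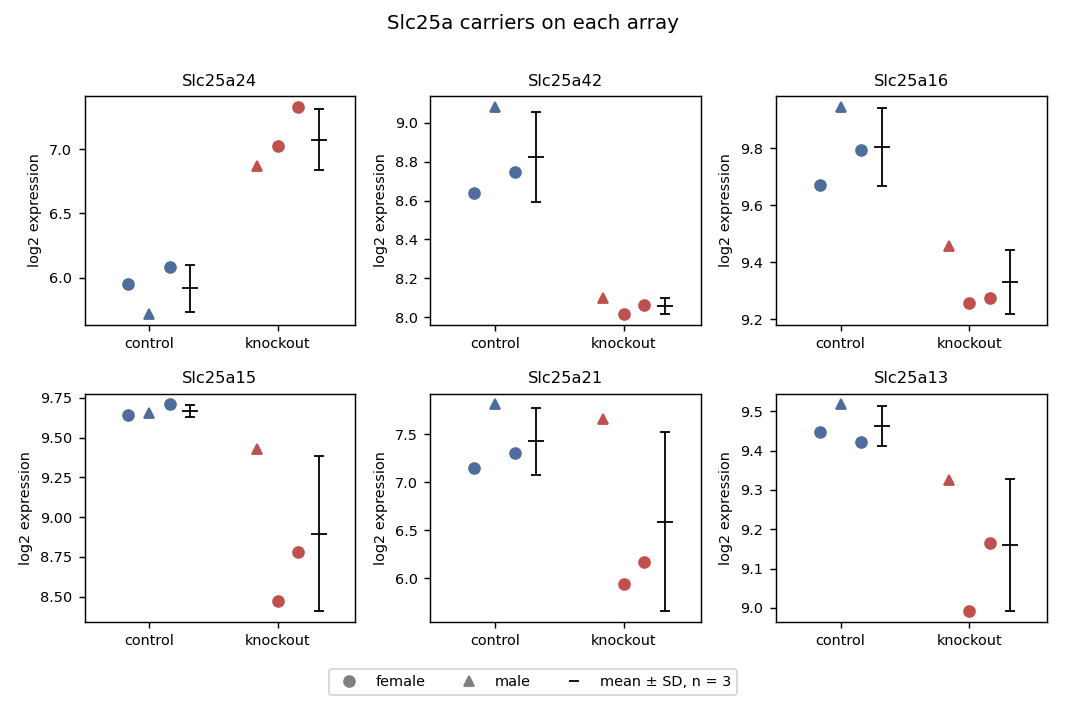
Log2 expression of 6 carriers on each array (circles, females; triangles, males; blue, controls; red, arrays labelled knockout), with the mean and SD of each group of 3 in black; each panel has its own axis. Slc25a24 is higher and Slc25a42 and Slc25a16 lower on all 3 arrays labelled knockout, while for Slc25a15 and Slc25a21 the male knockout array lies near the controls.

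Of the 8 carriers of nucleotides and cofactors 2 fell, both of them carriers linked to coenzyme A, and none rose; that link was noticed after the values were seen. Slc25a42 (Entrez gene 73095), which brings coenzyme A into the matrix in exchange for adenine nucleotides, stood at 8.10, 8.02 and 8.06 on knockout 1, 3 and 5. The controls 2, 4 and 6 stood at 8.64, 9.08 and 8.75. The arrays labelled knockout lay close together and all below the controls, of which the male was the highest. The difference was -0.76 ± 0.10 (SE), 1.70-fold, with an adjusted p of 0.010. It was -0.98 in the males and -0.65 in the females. The call was lost without control 6 (adjusted p = 0.053). Without controls 2 and 6 together the difference was that of the male pair (-0.98).

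Slc25a16 (Entrez gene 73132), the Graves disease carrier, whose yeast counterpart is needed for coenzyme A to build up in mitochondria, stood at 9.46, 9.26 and 9.28 on knockout 1, 3 and 5. On controls 2, 4 and 6 it stood at 9.67, 9.95 and 9.79. The groups did not overlap, and in each group the male array was the highest. The difference was -0.47 ± 0.08 (SE), 1.39-fold, with an adjusted p of 0.020. It hardly varied with any single array left out (-0.51 to -0.44), but the call was lost in each of those 6 fits (adjusted p from 0.059 to 0.081) and without sex in the model (0.073). In whole kidney RNA, fewer cells of a type and less RNA per cell cannot be told apart, here and below.

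The promoters of these carriers are shown because the pair fell together; both are RefSeq windows on GRCm38.p6, at chr8:70212232-70212531 on the minus strand for Slc25a42 and at chr10:62920383-62920682 on the plus strand for Slc25a16. Capitals mark matches on either strand to the CCAAT box (CCAAT), the GC box (GGGCGG), the TATA box (TATAAA) and GCGTGAC, a core of the sequence bound by the paired domain of Pax2, Pax5 and Pax8; the motifs were chosen after the values were seen.
Slc25a42: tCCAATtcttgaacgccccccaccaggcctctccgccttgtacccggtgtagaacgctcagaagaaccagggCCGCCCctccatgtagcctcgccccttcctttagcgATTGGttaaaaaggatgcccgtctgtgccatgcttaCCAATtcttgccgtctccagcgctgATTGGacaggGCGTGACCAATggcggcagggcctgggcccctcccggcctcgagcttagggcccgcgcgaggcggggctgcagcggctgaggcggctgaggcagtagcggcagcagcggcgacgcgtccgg
Slc25a16: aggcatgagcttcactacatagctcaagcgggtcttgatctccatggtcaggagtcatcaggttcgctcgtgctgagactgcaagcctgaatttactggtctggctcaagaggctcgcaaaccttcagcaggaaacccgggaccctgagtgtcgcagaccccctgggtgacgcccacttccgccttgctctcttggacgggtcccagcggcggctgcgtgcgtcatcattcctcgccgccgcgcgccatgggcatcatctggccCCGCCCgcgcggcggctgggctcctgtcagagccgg
The Slc25a42 window is 65.7% G or C and holds 5 CCAAT boxes between 249 and 65 bases before the start, 1 GC box and 1 GCGTGAC, whose last base is the first of a CCAAT box. The Slc25a16 window is 63.7% G or C and holds 1 GC box, 15 bases after the start. RefSeq windows were found for 35 of the 45 carriers, with 45 windows in all because some genes have several. A GC box was present in 82.2% of these windows, against 35.7% of all 32851 windows, a CCAAT box in 48.9% against 37.4%, a TATA box in 4.44% against 13.6%, and GCGTGAC in 6.67% (3 windows) against 2.09%. Their median G or C content was 59.7%, against 52.7%. A match is a description of the letters and not of binding.

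The other 6 carriers of nucleotides and cofactors did not pass. Slc25a17, which carries coenzyme A, FAD and NAD in the peroxisomal membrane, differed by 0.13 (95% confidence interval -0.06 to 0.33). The pyrimidine nucleotide carriers Slc25a33 and Slc25a36 differed by 0.04 and 0.05, the S-adenosylmethionine carrier Slc25a26 by -0.01, the folate carrier Slc25a32 by -0.08 and the NAD carrier Slc25a51 by -0.10. The widest of these 6 intervals, that of Slc25a51, ran from -0.44 to 0.24.

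None of the 3 carriers of ornithine and other basic amino acids passed. Slc25a15 (Entrez gene 18408), the ornithine carrier of the urea cycle and of arginine metabolism, came closest of all uncalled carriers. It stood at 9.43, 8.47 and 8.78 on knockout 1, 3 and 5 and at 9.64, 9.65 and 9.71 on controls 2, 4 and 6. The controls lay close together, the female arrays labelled knockout lay far below them and the male array slightly below. The difference was -0.77 ± 0.18 (SE; adjusted p = 0.053). In the females alone it was -1.05 with an adjusted p of 0.014. In the male pair, which alone sets the fit without controls 2 and 6, it was -0.22. The basic amino acid carrier Slc25a29 differed by -0.26 ± 0.10 (adjusted p = 0.17), with groups that did not overlap, and Slc25a2, a second ornithine carrier, by 0.00 ± 0.13.

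The 4 carriers of di- and tricarboxylates had a median of -0.16, and none passed. Slc25a21 (Entrez gene 217593), which moves 2-oxoadipate and 2-oxoglutarate in the breakdown of lysine and tryptophan, stood at 7.66, 5.94 and 6.16 on knockout 1, 3 and 5. On controls 2, 4 and 6 it stood at 7.15, 7.82 and 7.31. The male knockout array lay among the controls and both female ones lay well below the lowest control. The difference was -0.84 ± 0.21 (SE, adjusted p = 0.064), and it was -1.18 in the females alone (adjusted p = 0.0085). In the male pair, which alone sets the fit without controls 2 and 6, it was -0.16. The dicarboxylate carrier Slc25a10 differed by -0.17 and the oxoglutarate carrier Slc25a11 by -0.15. The citrate carrier Slc25a1, which feeds lipid synthesis, differed by -0.05 with a 95% confidence interval from -0.22 to 0.12.

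Of the 4 aspartate and glutamate carriers none passed. Slc25a13, the calcium-regulated aspartate/glutamate exchanger citrin of the malate-aspartate shuttle, stood at 9.33, 8.99 and 9.17 on knockout 1, 3 and 5 and at 9.45, 9.52 and 9.42 on controls 2, 4 and 6. The groups did not overlap, and the difference was -0.30 ± 0.09 (SE; adjusted p = 0.095). Its paralogue aralar, Slc25a12, differed by -0.08 ± 0.08. The glutamate carriers Slc25a22 and Slc25a18 differed by 0.20 ± 0.09 (limma adjusted p = 0.28) and -0.07 ± 0.09 (adjusted p = 0.74). The mean of Slc25a18 was low, at 3.60, below the array medians.

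None of the other 18 carriers passed. Of the iron and glutathione carriers, the mitoferrins Slc25a37 and Slc25a28 differed by -0.08 and -0.10, and Slc25a40, which supplies glutathione to the matrix, by -0.02. Slc25a39, the other glutathione carrier, stood at 9.85, 9.74 and 9.69 on knockout 1, 3 and 5 and at 9.85, 9.97 and 9.79 on controls 2, 4 and 6, groups that overlapped, with a difference of -0.11 ± 0.07 (adjusted p = 0.45). The 4 intervals of that list lay between -0.37 and 0.21. The branched-chain amino acid carrier Slc25a44 stood at 7.47, 7.58 and 7.51 on knockout 1, 3 and 5 and at 7.59, 7.46 and 7.56 on controls 2, 4 and 6. Its groups overlapped fully, with a difference of -0.02 ± 0.07 (adjusted p = 0.92), and the glycine carrier Slc25a38 differed by -0.02 as well.

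Among the carriers that resemble uncoupling proteins, Slc25a27 stood at 4.44, 4.96 and 4.95 on knockout 1, 3 and 5 and at 4.51, 4.50 and 4.54 on controls 2, 4 and 6, so that both female arrays labelled knockout were high and the male one was not. Its difference was 0.27 ± 0.11 (adjusted p = 0.23), and those of Slc25a30 and Slc25a14 were 0.06 and 0.03. The 9 carriers with no settled substrate ranged from -0.27 for Slc25a47 (SE 0.09, adjusted p = 0.15) to 0.27 for Slc25a43 (adjusted p = 0.26). Slc25a47 stood at 4.30, 4.37 and 4.21 on knockout 1, 3 and 5, all below the 4.50, 4.49 and 4.70 of controls 2, 4 and 6.

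Other cell types differed between the same arrays. Proximal tubule markers, given as the mean log2 over 12 genes, stood at 10.44, 8.98 and 9.30 on knockout 1, 3 and 5 and at 10.40, 10.87 and 10.34 on controls 2, 4 and 6, and 4 of the 12 fell. That mean follows sex largely through Slc7a13, a transporter of the male proximal tubule. Slc7a13 measured 10.73 on knockout 1 and 10.93 on control 4, against 3.95 to 4.63 in females. Without it, a choice made after the values were seen, the mean over the other 11 did not overlap between the groups. That mean was 10.41, 9.38 and 9.78 on knockout 1, 3 and 5 and between 10.87 and 10.94 on the controls. Slc22a6, which stayed among these 11, was also higher in the males, by 0.86 ± 0.08 (SE, limma adjusted p = 0.0058). The 4 that fell, Slc34a1, Slc5a2, Slc5a12 and Slc6a19, were lower in the male pair too, with knockout 1 minus control 4 between -2.17 and -0.35. Collecting duct markers ranged from 6.94 to 7.18 on the arrays labelled knockout and from 7.97 to 8.36 on the controls, with 5 of 7 lower. Macrophage and other myeloid markers ranged from 6.49 to 7.26 against 5.51 to 5.65, with 8 of 10 higher, and fibroblast markers from 8.01 to 8.41 against 6.97 to 7.47, with 4 of 6 higher, on the same arrays on which Slc25a24 was high. Adipocyte markers ranged from 4.93 to 5.58 against 4.55 to 6.07, and none of the 12 passed. Elovl3 and Lep of the adipocyte list were below the dim limit, and all markers of the other 4 lists were above it. Of 7 thick ascending limb and distal tubule markers 1 rose (Pvalb) and 1 fell (Bsnd), of 6 lymphocyte markers 2 rose (Cd4 and Ighm), of 6 muscle markers 1 rose (Tagln), and of 5 endothelial and 3 podocyte markers none passed. The red blood cell list was measured through Slc4a1 alone, which intercalated cells also express, so blood content was not tested. The part of these cell types in the differences of the carriers was not tested.

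**Figure D3:**
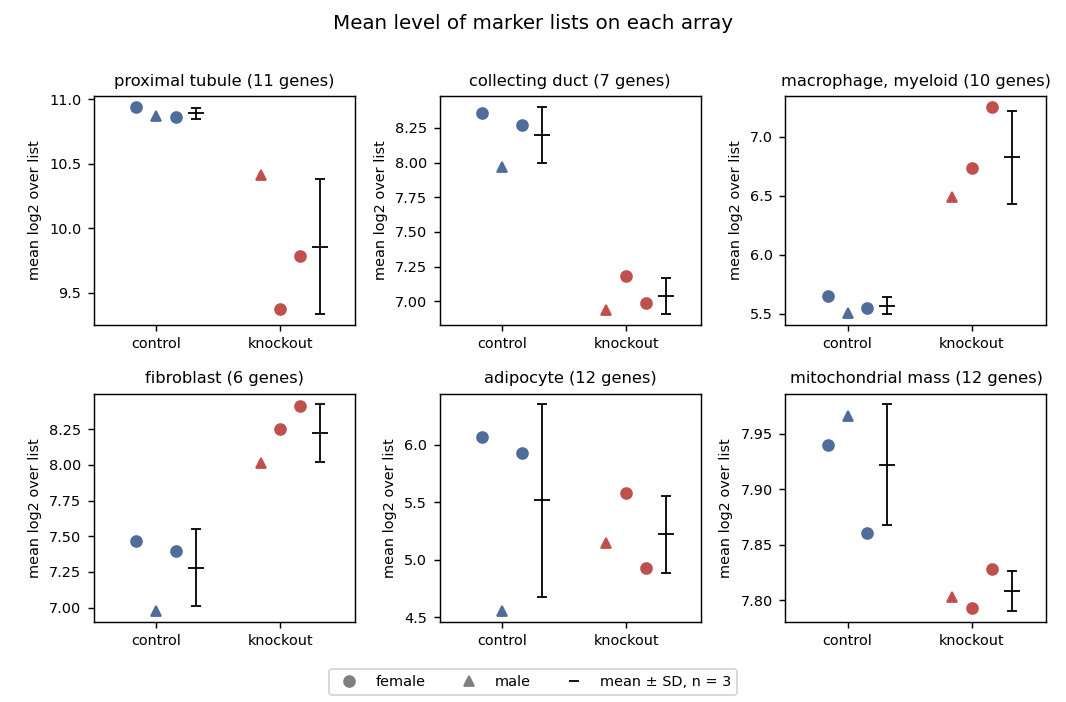
Mean log2 level of 5 marker lists and of a list of mitochondrial mass genes on each array (circles, females; triangles, males; blue, controls; red, arrays labelled knockout), with the mean and SD of each group of 3 in black; each panel has its own axis. The proximal tubule mean is drawn over 11 markers, without the sex-dependent Slc7a13 but with Slc22a6, which was also higher in males. It is 9.38 to 10.41 on the arrays labelled knockout and 10.87 to 10.94 on the controls. The myeloid and fibroblast means are higher on all 3 arrays labelled knockout.

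The genotype difference was then set out by sex, with 1 array of each group in the males and 2 in the females. No carrier had a genotype by sex term that passed in limma (5 of 45 at an unadjusted p under 0.05, where 6.99% of all genes had one and 0.00451% passed after adjustment). The smallest p-values were those of Slc25a21 and Slc25a15. For Slc25a21 the difference was -0.16 in the males and -1.18 in the females, a term of 1.02 ± 0.21 (SE) with an adjusted p of 0.52. For Slc25a15 it was -0.22 and -1.05, a term of 0.83 ± 0.23 with an adjusted p of 0.62. The other 3 were Slc25a27, Slc25a32 and Slc25a51, with adjusted p-values between 0.66 and 0.69. A difference between the sexes was therefore not shown for any carrier.

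**Figure D4:**
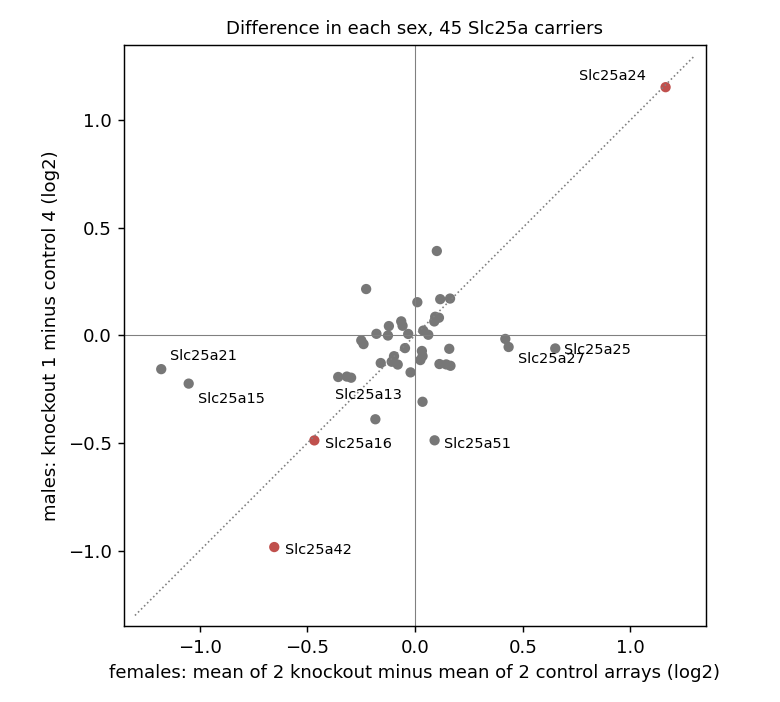
Log2 difference of each of the 45 carriers in the females (x axis, means of 2 arrays per group) and in the males (y axis, 1 array per group); red points are the 3 carriers that passed and the dotted line marks equal differences. Slc25a24 and Slc25a16 lie close to the line, while Slc25a21 and Slc25a15 lie near 0 on the male axis and below -1 on the female axis.

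Between males and females of both groups together, no carrier passed in limma, with 8 of 45 at an unadjusted p under 0.05; of all genes 1.87% passed and 16.1% had such a p. Slc25a21 was 1.10 ± 0.22 (SE) higher in the males (adjusted p = 0.067). Among arrays labelled knockout the male stood at 7.66 and the females at 5.94 and 6.16. Among controls the male stood at 7.82 and the females at 7.15 and 7.31. The calcium-regulated Slc25a23 and the ADP/ATP exchanger Slc25a4 were both 0.29 lower in the males (adjusted p = 0.13 and 0.15).

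Genes that work beside the carriers are given list by list. Over all genes, 4.12% were called higher and 3.08% lower. Of the 13 genes for import and insertion of carrier proteins none passed. Small chaperones of the intermembrane space guide carriers to the inner membrane. Of these, Timm8b differed by -0.30 (limma adjusted p = 0.074), Timm10 by -0.30 (0.11) and Timm9 by -0.32 (0.15). Timm10b, Timm13 and Timm8a1 differed by -0.18, -0.13 and -0.01. The import receptor Tomm20 differed by -0.33 (0.083), and Tomm70a, Tomm22 and Tomm40 by -0.01, 0.04 and 0.07. The list's median was -0.15. Of the 16 other mitochondrial transporters measured, 1 rose, Sfxn3 of the sideroflexin family, by 0.50 ± 0.10 (SE; adjusted p = 0.036), and none fell, with a median of -0.08. The call of Sfxn3 was lost with any single array left out except control 6 (adjusted p up to 0.13). The pyruvate carrier subunit Mpc1 and the calcium uniporter Mcu differed by -0.11 and -0.10. The outer membrane channel Vdac1 differed by -0.13, and its paralogues Vdac2 and Vdac3 by 0.08 and 0.11. Of the relatives with other names, Ucp1 (-1.70 ± 0.92) and Ucp3 (-0.64 ± 0.30) did not pass and were highest on controls 2 and 6. Mtch1 and Mtch2 differed by 0.11 and 0.05. Ucp2 had no cluster with a single gene symbol and was not tested.

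Among 22 enzymes that use or make what the carriers move, 4 rose and 1 fell, with a median of 0.02. The proline and ornithine pathway enzyme Aldh18a1 rose by 0.88 ± 0.11 (SE; adjusted p = 0.0098), and the mitochondrial arginase Arg2, which makes ornithine, rose by 0.82 ± 0.11 (adjusted p = 0.011). Both lost their calls without control 2 (adjusted p = 0.051 for each). The groups did not overlap for Aldh18a1, at 5.43, 5.22 and 5.51 on knockout 1, 3 and 5 against 4.52, 4.38 and 4.63 on controls 2, 4 and 6. They overlapped for Arg2, at 7.02, 8.21 and 8.21 against 7.51, 5.91 and 7.57, with the males the lowest of each group. The mitochondrial form of phosphoenolpyruvate carboxykinase, Pck2, rose by 0.65 ± 0.10 (adjusted p = 0.017), and the folate enzyme Mthfd1l by 0.78 ± 0.13 (0.023). The serine and glycine enzyme Shmt2 fell by 0.65 (adjusted p = 0.045). With single arrays left out, the calls of Pck2 and Mthfd1l were lost in 5 of 6 fits (adjusted p up to 0.064 and 0.093) and that of Shmt2 in 4 (up to 0.16), the exceptions being the fit without control 6 for Pck2, that without knockout 5 for Mthfd1l and those without knockout 1 or control 4 for Shmt2. Ornithine aminotransferase Oat differed by -0.18 (adjusted p = 0.31) and citrate synthase Cs by -0.02.

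Of 12 genes of mitochondrial mass and its regulators 1 fell and none rose (median -0.12). Ppargc1b, a coactivator of mitochondrial genes, fell by 0.60 (adjusted p = 0.024), at 5.87, 5.92 and 6.04 on knockout 1, 3 and 5 against 6.42, 6.72 and 6.49 on controls 2, 4 and 6. Its call was kept without knockout 5 and lost without any of the other 5 arrays (adjusted p up to 0.085). The mitochondrial transcription factor Tfam differed by -0.23 ± 0.08 (SE; adjusted p = 0.16) and the coactivator Ppargc1a by -0.19 ± 0.09 (adjusted p = 0.29).

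**Figure D5:**
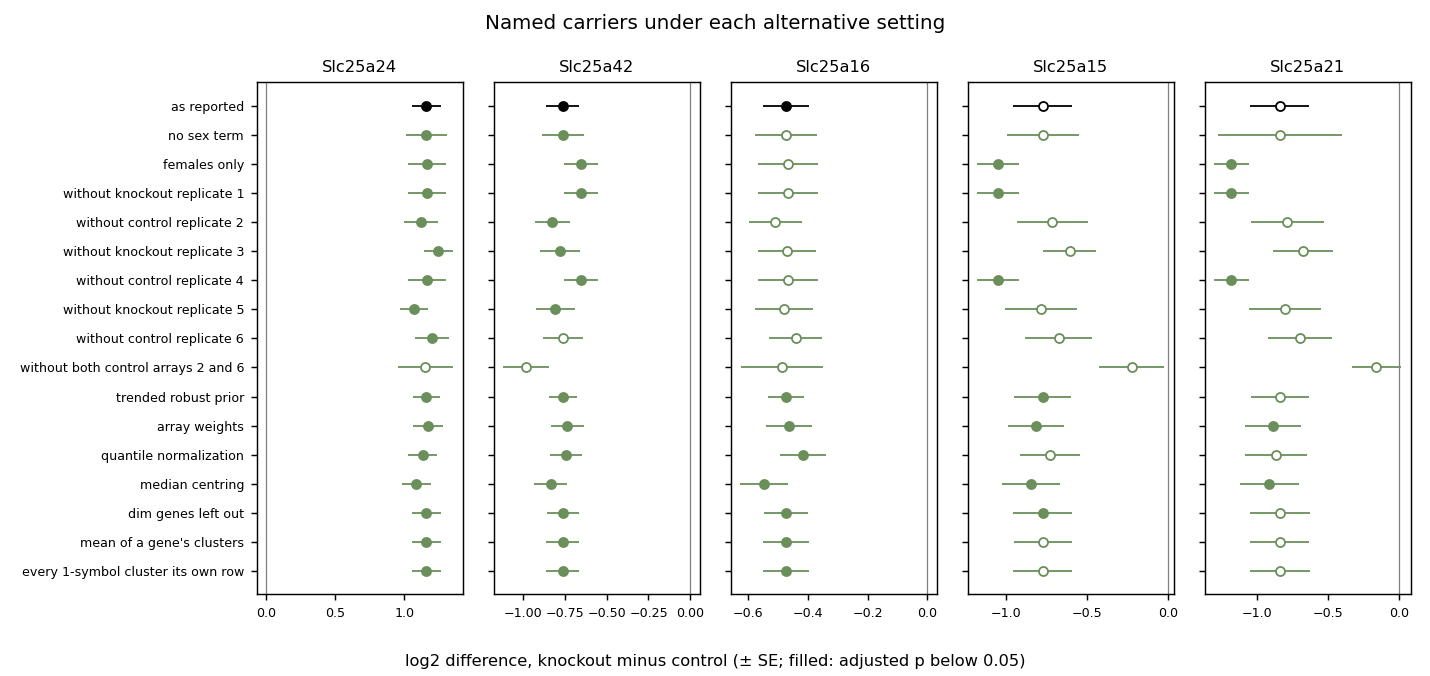
Log2 difference (± SE) of 5 carriers as reported (black) and under each of 16 alternative settings (green), with filled points where the adjusted p was below 0.05. Slc25a24 stays between 1.07 and 1.25, whereas Slc25a15 and Slc25a21 range from -1.05 to -0.22 and from -1.18 to -0.16. For both, the lower end is females only and the upper end the male pair, which alone sets the fit without controls 2 and 6.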

How the data were processed

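RNA of 6 kidney samples was hybridised to 1 array each from 400 ng of RNA, per the labels. The authors deposited log2 expression values per transcript cluster; the submitters' processing notes name RMA, limma and R 3.4.0 but not what each did, and the genome build is not given in the sources used here. Those values were taken unchanged. Of 41345 clusters, 23521 had 1 gene symbol in the platform annotation; the 1814 with several and the 16010 without a symbol were not tested. The cluster with the highest mean stood for a gene, which left 22180 genes; each carrier had 1 cluster. Limma 3.58.1 in R 4.3.3 was fitted with genotype and sex (6.72 total degrees of freedom), and with their product for the interaction, and was tested on simulated data. Named in full were the carriers that passed and the member of each substrate list with the smallest p. Of related lists, every called gene was named. The members, lists and some alternatives were chosen with earlier results of these data known. Alternatives dropped the sex term, the males, single arrays, controls 2 and 6 together, or dim genes; others changed limma's prior (trended and robust), weighted the arrays, normalized by quantiles, centred each array on its median, averaged a gene's clusters, or tested every cluster as a row. The 6 arrays limit the precision.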

Additional observations from a re-analysis of the deposited data

How the results depend on the processing

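No paired analysis was possible because the replicate numbers of the groups differ (1, 3 and 5 against 2, 4 and 6). The count of carriers called higher, 1 in the report, was 1 under 15 of the 16 alternatives, each time Slc25a24. The remaining alternative, without controls 2 and 6 together, rests on the male pair alone, so its counts are not given. The count called lower, 2 in the report, was 1 without sex in the model and 5 after median centring. It was 4 with a trended robust prior and 4 with array weights. With single arrays left out it ranged from 0 (without control 6, 5 at an unadjusted p under 0.05) to 3. Those added were drawn from Slc25a13, Slc25a15 and Slc25a21. The carriers' median difference (-0.023 in the report) was -0.097 after median centring, -0.060 without controls 2 and 6, and between -0.058 and -0.020 with single arrays left out. Of all genes, 1596 in the report, 471 passed without sex and 344 to 1249 with single arrays left out. Leaving out either male array gives the females-only fit. The count of carriers that differed by sex, 0 in the report, was 3 with a trended robust prior and 0 with any single female array left out. Without knockout 1 or control 4 only 1 male is left, so that count is not given. The genotype by sex count was 0 in each fit run (2 to 6 at an unadjusted p under 0.05). That term could not be fitted without knockout 1 or control 4. Causes were not tested. Direction reversed for none of the called carriers under the alternatives run.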

Other observations

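Because both carriers that fell are linked to coenzyme A, genes of its synthesis and breakdown were listed after those values were seen; the list was given no test of its own. Of 10 measured genes 3 fell and none rose, with a median of -0.19. Over all genes 3.08% were called lower and 4.12% higher. Coasy, the bifunctional enzyme that makes coenzyme A in the last steps of its synthesis, stood at 7.40, 6.78 and 6.77 on knockout 1, 3 and 5 and at 7.51, 8.00 and 7.60 on controls 2, 4 and 6. The groups did not overlap, the difference was -0.72 ± 0.08 (SE; limma adjusted p = 0.0077), and it passed in each of the 6 fits that dropped 1 array (-0.78 to -0.68, adjusted p up to 0.044). Vnn1, a pantetheinase, fell by 0.56 (adjusted p = 0.028), with groups that did not overlap. Pank1, a pantothenate kinase at the first step, fell by 0.38 (adjusted p = 0.049), with groups that overlapped and the male arrays highest. Neither call survived the removal of any 1 array (adjusted p up to 0.099 for Vnn1 and 0.15 for Pank1). Pank3, Pank4, Ppcs and Ppcdc differed by -0.11 to -0.19, and the coenzyme A hydrolases Nudt7, Nudt8 and Nudt19 by -0.05, -0.38 and -0.15, and none of these 7 passed.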
